A study of Mus musculus with 908 samples.

Results

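Desmosome genes were followed through single tumour cells sorted from squamous cell carcinomas of mouse skin. The members were chosen by symbol, 10 of the 46517 gene rows measured, and all 10 were present in both expression tables. They were the desmogleins Dsg1a, Dsg2 and Dsg3, the desmocollins Dsc1, Dsc2 and Dsc3, and the plaque genes Jup, Dsp, Pkp1 and Pkp3. Single cells were sorted into wells and made into full-length Smart-seq2 libraries, and the deposited value was TPM, a transcript's share of a library after correction for its length, so levels of different genes can be set side by side.

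Of 908 libraries, those on 7 of the 11 plates that passed the minimum of 2000 detected genes entered the comparisons, in 5 gates. The gate after transfer (87 libraries of plate OT2 and 90 of plate OT_B) held mCherry+ cells of TRE-OVA;TRE-HrasG12V:PGK-rtTA3P2AmCherry mice after adoptive cell transfer, an infusion of immune cells, with no gate on α6 integrin, CD34 or CD44. The other gates were taken before therapy from TRE-HrasG12V;SBE-mCherry-PGK-rtTA3 mice, in which mCherry reports activity at SMAD-binding elements. Reporter-positive cells (73 libraries of plate CSC1 and 32 of plate CSC2) were α6+, mCherry+, CD34+ and CD44+. CD44+ reporter-negative cells (15 libraries) were α6+, mCherry- and CD34-, and CD44-negative α6+ cells (91 libraries) lacked mCherry, CD34 and CD44. The α6-negative gate (43 libraries) lacked all 4 of these. Cells with surface CD45, CD117, CD140a or CD31 had been gated out throughout. The mice were labelled as of mixed sex and at postnatal day 60 to 90, and every group carried the inducible activated Hras transgene. Therapy, strain and surface gating changed together. The effects of transfer, ovalbumin antigen, the different mCherry construct and sorting on α6, CD34 and CD44 therefore cannot be told apart.

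Desmosomes are spot junctions that tie the keratin filaments of neighbouring epithelial cells together. Desmogleins and desmocollins are cadherins that meet across the gap between cells. Inside the cell they bind plakoglobin (Jup) and plakophilins, and desmoplakin (Dsp) connects this plaque to keratin. In normal epidermis the basal layer is rich in Dsg3 and Dsc3, and the layers above it take on Dsg1 and Dsc1, while Dsg2 and Dsc2 are the pair found in simple epithelia as well.

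The libraries differed in ways that touch the results. Cells were identified by marker lists, and all libraries after transfer, all reporter-positive and all CD44-negative α6+ libraries were led by keratinocyte markers. In the CD44+ reporter-negative gate 12 of 15 libraries were, with 2 led by pericyte or muscle and 1 by Schwann markers. In the α6-negative gate 27 of 43 were, while fibroblast markers led 14 and pericyte or muscle markers 2. The 9 keratinocyte markers, all with a mean of at least 1 TPM in every gate, summed to 1579 to 32669 TPM after transfer and 2576 to 27755 TPM in the reporter-positive gate. The sums were 0 to 15975 TPM for CD44+ reporter-negative, 2938 to 24965 TPM for CD44-negative α6+ and 0 to 28177 TPM for α6-negative libraries. All 8 fibroblast markers had a mean of at least 1 TPM in the α6-negative gate, where they summed to 0 to 22756 TPM per library, and only 1 of 8 did after transfer, with Dcn, Lum and Col6a3 listed at 0. Detected genes, those with a TPM of 1 or more, had a median number of 6657, 7760, 7222, 6810 and 5521 in the same order of gates. Y-linked RNA without Xist was seen in all but 7 libraries after transfer, all but 6 reporter-positive and all but 4 α6-negative libraries, and Xist without Y-linked RNA in 0 of these 3 gates' libraries. The CD44+ reporter-negative gate had 12 libraries with Xist only and 0 with Y-linked RNA only, and the CD44-negative α6+ gate had 42 and 44. The labels name no animal, so each gate was treated as 1 sample, no test was made between gates, and the animal cannot be told apart from the gate. Plates OT_C and OT_D, labelled after therapy, held repeat libraries of cells on the plates CSC1, CSC2 and CD44 (71, 29 and 14 pairs), and were left out as the same cells cannot stand in both groups. The same repeats mean that the before and after labels of those cells contradict each other in the files. Within the plates compared, 6 pairs of libraries of 1 gate also looked like repeats.

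The promoters of Jup, the most abundant member, and Dsp, the link to keratin, are shown. Among the plaque members, only these had an entry in the RefSeq promoter table used. The cadherin members were left out of the match. On GRCm38.p6 the windows are chr11:100397741-100398040 on the minus strand for Jup and chr13:38151044-38151343 on the plus strand for Dsp, each running from 250 bases before to 50 bases after the start. Capitals mark the GC box letters GGGCGG, or CCGCCC where the box lies on the opposite strand.
Jup: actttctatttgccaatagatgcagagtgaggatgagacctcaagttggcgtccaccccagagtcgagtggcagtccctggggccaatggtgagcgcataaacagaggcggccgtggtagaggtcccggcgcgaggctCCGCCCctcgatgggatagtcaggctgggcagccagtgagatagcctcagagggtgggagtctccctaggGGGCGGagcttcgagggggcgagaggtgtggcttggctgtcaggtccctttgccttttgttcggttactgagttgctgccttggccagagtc
Dsp: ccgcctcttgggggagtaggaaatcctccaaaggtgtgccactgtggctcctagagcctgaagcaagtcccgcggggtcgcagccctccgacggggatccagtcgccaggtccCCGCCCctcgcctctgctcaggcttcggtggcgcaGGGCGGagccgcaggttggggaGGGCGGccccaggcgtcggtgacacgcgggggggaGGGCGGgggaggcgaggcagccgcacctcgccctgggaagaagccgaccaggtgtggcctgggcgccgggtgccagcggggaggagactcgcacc
The Jup window held 2 such boxes, 1 on each strand, and the Dsp window held 4, with 3 on the strand shown. Among 32851 promoter windows of the same length, 35.7% held at least 1 box and 5.49% held 4 or more. The match describes letters only.

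The genes lie in 5 places on mm10 by the GENCODE M21 annotation. Jup is at chr11:100368958-100397763 (minus strand), Dsp at chr13:38151294-38198577 (plus strand), Pkp1 at chr1:135871395-135919207 (minus strand) and Pkp3 at chr7:141078218-141090510 (plus strand). All 6 cadherin members share 1 cluster on chromosome 18, in which Dsc3, Dsc2 and Dsc1 lie on the minus strand from 19960930 to 20114871. Dsg1a, Dsg3 and Dsg2 follow on the plus strand from 20310811 to 20604521, with the paralogs Dsg1b and Dsg4 between Dsg1a and Dsg3, and the paralog Dsg1c lies just before Dsg1a. Each is a protein-coding gene, and TPM sums over its whole transcripts. Genes that sit side by side in the cluster had different patterns, as the values below show. Dsg1a, Dsg1b and Dsg1c are close copies, and their values were made with the program RSEM. How well it separates reads that match several copies was not tested, so the split among them is uncertain.

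The plaque genes had high means in every gate. Jup encodes plakoglobin, which also serves in adherens junctions, and had the highest level of the members in every gate. Jup held 26.1, 589 and 2372 TPM (lowest, median and highest library) after transfer, 66.8, 548 and 2225 in reporter-positive, 2.06, 279.1 and 908 in CD44+ reporter-negative, 101.5, 459.1 and 1923 in CD44-negative α6+ and 0, 317.4 and 1052 in α6-negative cells. The gates overlapped over most of their range, with the low tail in the CD44+ reporter-negative and α6-negative gates. Its means were 672, 663, 363.5, 595 and 358.04 TPM, and the step below the CD44-negative α6+ gate (0.71 on the log2 scale) was the 1 step between neighbouring gates that exceeded the largest difference between plates of 1 gate (0.17). In libraries led by keratinocyte markers the Jup mean was 440.2 TPM in the CD44+ reporter-negative gate and 554 TPM in the α6-negative gate.

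Dsp encodes desmoplakin, the link to keratin. Dsp held 19.4, 193.7 and 348.8 TPM (lowest, median, highest) after transfer, 0, 117.97 and 344.1 in reporter-positive, 0, 116.4 and 277.8 in CD44+ reporter-negative, 29.9, 124.8 and 456.4 in CD44-negative α6+ and 0 to 617 (lowest and highest) in α6-negative cells. Over all libraries the widest spread was in α6-negative cells, where the 27 keratinocyte-led libraries had a median of 214.85 TPM, above the median after transfer. Dsp was detected in every library after transfer, in all but 1 reporter-positive library and in 12 of 15, 91 of 91 and 28 of 43 libraries of the other gates. The plakophilins Pkp1 and Pkp3 are armadillo proteins that cluster cadherins and desmoplakin in the plaque. Pkp1 held 29.99, 171.4 and 448.7 TPM after transfer, 0, 143.95 and 355.1 in reporter-positive, 0, 101.6 and 423.9 in CD44+ reporter-negative, 36.1, 129.4 and 369.2 in CD44-negative α6+ and 0, 88.98 and 403.9 in α6-negative cells. Pkp3 held 1.10, 133.6 and 477.4 TPM, 15.1, 101.6 and 286.6 TPM, 0, 85.9 and 188.6 TPM, 0, 88.1 and 456.3 TPM, and 0, 49.2 and 448.4 TPM in the same order of gates. For both plakophilins the gates overlapped throughout, and Pkp1 exceeded Pkp3 in the mean of every gate, by a ratio of 1.25 to 1.49.

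Dsg3 and Dsc3, the cadherins known from the basal epidermis, were likewise present in nearly every keratinocyte library. Dsg3 held 0, 65.97 and 265.6 TPM (lowest, median, highest) after transfer, 0, 79.1 and 249.8 in reporter-positive, 0, 37.1 and 164.99 in CD44+ reporter-negative, 4.95, 73.97 and 201.1 in CD44-negative α6+ and 0, 0 and 252.7 in α6-negative cells. The α6-negative gate was split, with 19 of 43 libraries at a TPM of at least 1 and some of those among the highest of any gate, and its keratinocyte-led libraries had a median of 26.2 TPM. Dsc3 held 0, 107.8 and 273.7 TPM after transfer, 0, 64.5 and 225.2 in reporter-positive, 0, 49.8 and 226.8 in CD44+ reporter-negative, 12.3, 73.3 and 205.6 in CD44-negative α6+ and 0, 51.01 and 320.6 in α6-negative cells. Among the 27 keratinocyte-led α6-negative libraries, Dsc3 was at a TPM of at least 1 in 26, and Dsg3 in 19, so 7 or more of them carried Dsc3 without Dsg3.

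**Figure D1:**
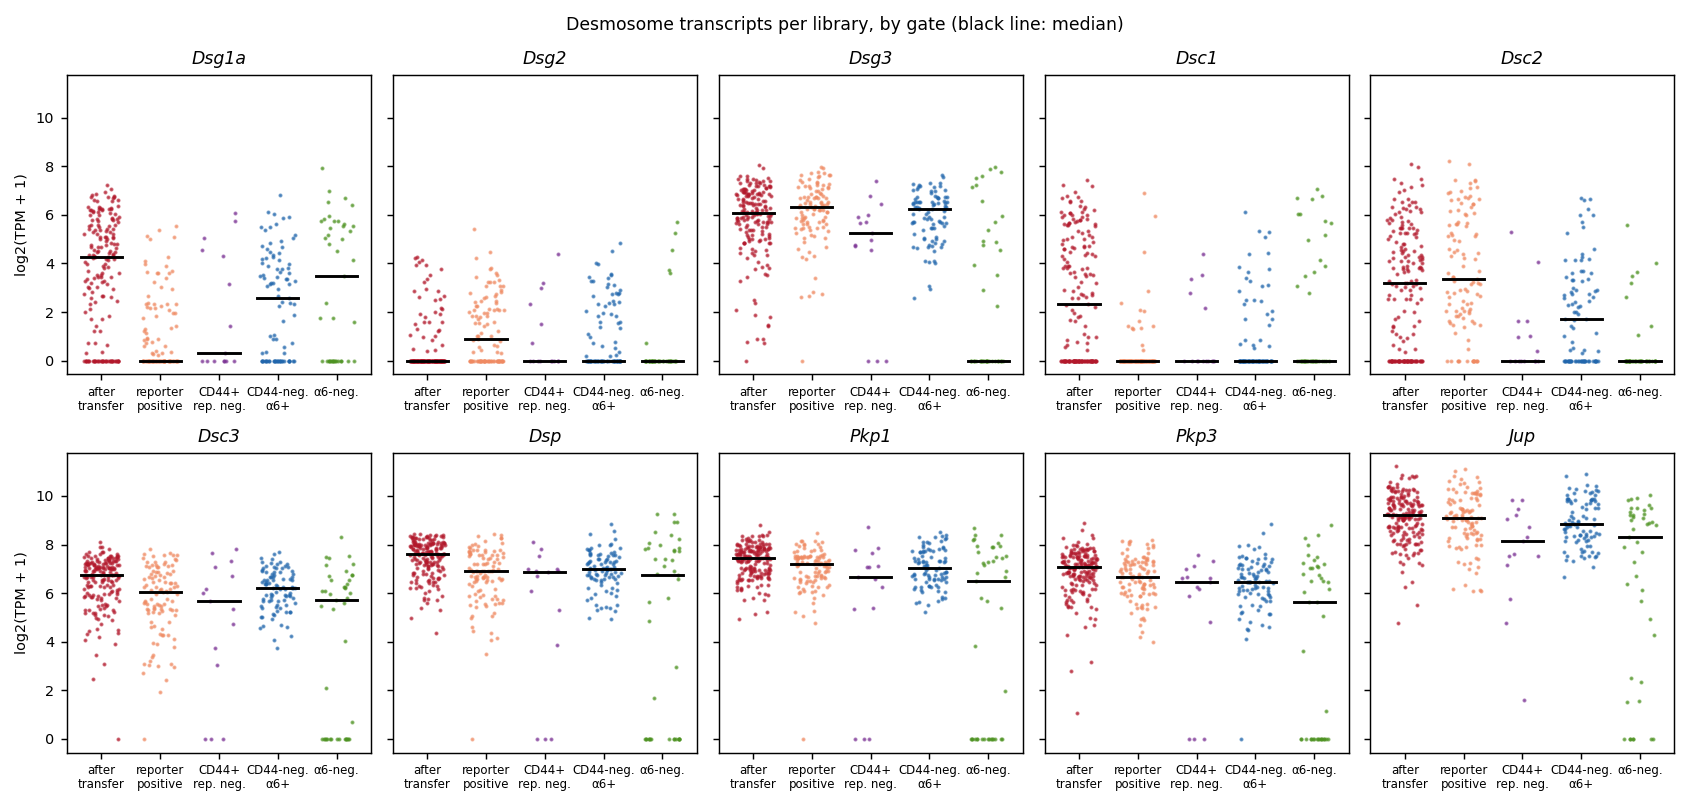
Each point is 1 library, with log2(TPM + 1) on the vertical axis, gates on the horizontal axis and 1 panel per gene; black lines are medians. Jup is above 0 in every gate except for libraries in the α6-negative gate, the libraries at or near 0 for Dsp, Pkp1, Pkp3 and Dsc3 lie mostly in the CD44+ reporter-negative and α6-negative gates, and Dsg1a, Dsc1, Dsc2 and Dsg2 spread down to 0 in every gate.

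Dsg1a and Dsc1, the cadherins of the upper epidermal layers, differed widely between gates. Dsg1a held 0, 18.1 and 147.9 TPM (lowest, median, highest) after transfer, 0, 0 and 45.03 in reporter-positive, 0, 0.23 and 66.7 in CD44+ reporter-negative, 0, 4.89 and 111.5 in CD44-negative α6+ and 0, 10.1 and 244.9 in α6-negative cells. The ranges overlapped, and the reporter-positive gate was the lowest. Dsg1a was at a TPM of at least 1 in 76.3% of libraries after transfer (exact 95% interval 69.3 to 82.3), 36.2% of reporter-positive libraries (27.04 to 46.1) and 46.7% in the CD44+ reporter-negative gate (21.3 to 73.4). The share was 59.3% among CD44-negative α6+ libraries (48.5 to 69.5) and 60.5% among α6-negative ones (44.4 to 75.02). In the keratinocyte-led α6-negative libraries alone it was 92.6% (75.7 to 99.1), above the share in any other gate. These exact Clopper-Pearson intervals cover counting error only.

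Dsc1 held 0, 4.08 and 173.7 TPM after transfer, 0, 0 and 118.5 in reporter-positive, 0, 0 and 20.2 in CD44+ reporter-negative, 0, 0 and 69.04 in CD44-negative α6+ and 0, 0 and 133.8 in α6-negative cells. Over all libraries the gate after transfer was the only 1 of the 5 with a median above 0, but the keratinocyte-led α6-negative libraries had a median of 10.06 TPM. Dsc1 was at a TPM of at least 1 in 55.9% of libraries after transfer (48.3 to 63.4), 12.4% of reporter-positive libraries (6.76 to 20.2) and 33.3% in the CD44+ reporter-negative gate (11.8 to 61.6). The share was 25.3% among CD44-negative α6+ libraries (16.7 to 35.5) and 37.2% among α6-negative ones (22.98 to 53.3), or 59.3% of the keratinocyte-led α6-negative libraries (38.8 to 77.6). The reporter-positive mean of 2.18 TPM leaned on 13 libraries, 1 of which held 118.5 TPM, and the plate means were 4.48 TPM on CSC2 and 1.17 TPM on CSC1.

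Dsc2, the broadly expressed desmocollin, ran in a different order. Dsc2 held 0, 8.05 and 270.6 TPM after transfer, 0, 9.30 and 299.01 in reporter-positive, 0, 0 and 37.8 in CD44+ reporter-negative, 0 and 2.24 (lowest and median) in CD44-negative α6+ and 0, 0 and 46.3 in α6-negative cells. The after-transfer and reporter-positive gates had the highest libraries, and all gates overlapped at the low end. It was at a TPM of at least 1 in 65.5% of libraries after transfer (58.04 to 72.5) and 84.8% of reporter-positive libraries (76.4 to 91.03). The share was 33.3% for CD44+ reporter-negative (11.8 to 61.6), 56.04% for CD44-negative α6+ (45.2 to 66.4) and 18.6% for α6-negative libraries (8.39 to 33.4), of which the keratinocyte-led ones had 25.9% (11.1 to 46.3). Dsg2, the broadly expressed desmoglein, was low in every gate, with means of at most 3.12 TPM. Dsg2 reached at most 18.3 TPM after transfer, 41.5 in reporter-positive, 19.9 in CD44+ reporter-negative, 27.3 in CD44-negative α6+ and 50.5 in α6-negative cells, and its medians were 0 except for 0.85 TPM in reporter-positive cells. Dsg2 was at a TPM of at least 1 in 18.1% of libraries after transfer (12.7 to 24.6), the lowest share among the 4 gates gated as α6+ or mCherry+, and in 48.6% of reporter-positive libraries (38.7 to 58.5).

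**Figure D2:**
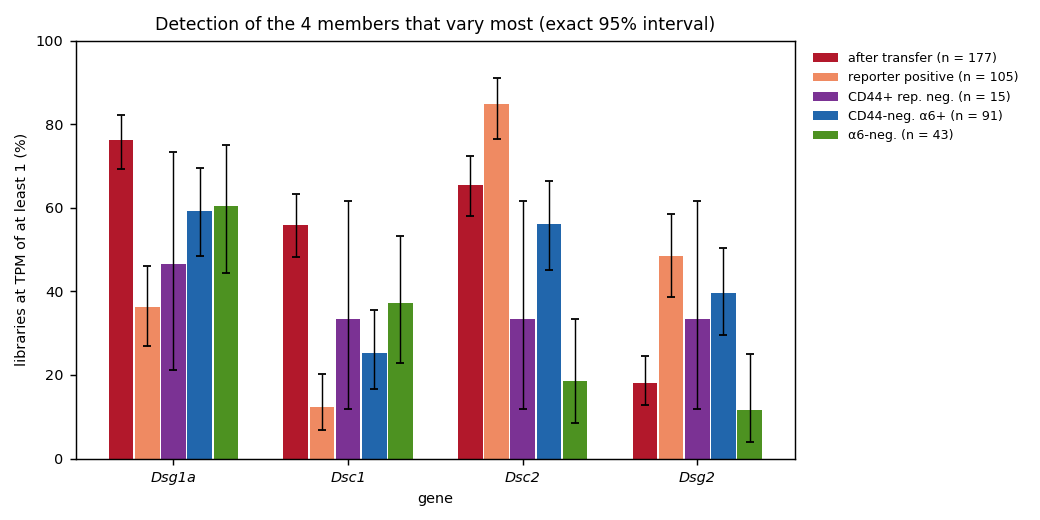
Bars give the percent of libraries at a TPM of at least 1 for 4 members in each gate, and lines the exact 95% binomial interval (counting error only). Dsg1a and Dsc1 are lowest in reporter-positive cells, at 36.2% and 12.4%, where Dsc2 and Dsg2 are highest, at 84.8% and 48.6%. The Dsg2 share was 56.2% on plate CSC1 and 31.25% on plate CSC2, the latter below the 39.6% of CD44-negative α6+ cells.

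Only part of the steps in the order of the gates exceeded the difference between plates. Over the 10 members there were 40 steps between neighbouring gates in the order of means, and 13 were larger than that gene's largest difference between 2 plates of 1 gate. Only the after-transfer and reporter-positive gates had 2 plates, and the labels name no animal. The plate difference therefore does not measure differences between animals. The tiers below are separated by steps larger than the plate difference. Dsg1a formed 3 tiers, with α6-negative and after-transfer cells at 30.9 and 29.7 TPM, CD44+ reporter-negative and CD44-negative α6+ cells at 13.5 and 12.3 TPM, and reporter-positive cells at 3.84 TPM. The keratinocyte-led α6-negative libraries alone averaged 49.1 TPM. Dsc1 formed 2 tiers, with after-transfer and α6-negative cells at 20.8 and 18.8 TPM and the other gates between 2.18 and 3.63 TPM. Dsc2 formed 3, with after-transfer and reporter-positive cells at 26.2 and 38.7 TPM, CD44-negative α6+ cells at 10.5 TPM, and CD44+ reporter-negative and α6-negative cells at 4.01 and 2.31 TPM. No step of Pkp3 exceeded its largest plate difference (0.41 on the log2 scale).

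Cells after transfer were set against reporter-positive cells, the TGF-beta-responsive gate taken before therapy from mice of the other strain. Dsg1a averaged 29.7 ± 33.4 TPM after transfer and 3.84 ± 8.43 TPM in reporter-positive cells (SD over the libraries of each gate), a log2 fold of 2.67 on the mean TPM + 1 scale. Dsc1 averaged 20.8 ± 32.6 TPM after transfer and 2.18 ± 13.1 TPM in reporter-positive cells, a log2 fold of 2.78. These 2 of 10 members were at least 2-fold higher, against 3.17% of the 11711 genes measured, and 0 of 10 members were at least 2-fold lower, against 8.6%. All 10 members passed the filter of a mean TPM of at least 1 in either gate, here and in each comparison below. The median log2 fold of the members was 0.27, beside -0.22 over all genes. Both folds exceeded the plate differences of their genes, which reached 0.60 for Dsg1a and 1.34 for Dsc1. Dsg2 had a log2 fold of -0.88, under 2-fold. It passed 2-fold with a pseudocount of 0.1 (-1.28), with TPM rescaled without spike-in and ribosomal rows (-1.11) and without plate OT2 (-1.01). The plaque members differed by a log2 fold of 0.02 (Jup) to 0.56 (Dsp).

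Against CD44-negative α6+ cells, cells after transfer had 3 of 10 members at least 2-fold higher, beside 3.91% of 11503 genes, and 0 of 10 at least 2-fold lower, beside 4.71%. The log2 folds were 1.205 for Dsg1a, 2.24 for Dsc1 and 1.24 for Dsc2. Dsc2 averaged 26.2 ± 43.7 TPM after transfer and 10.5 ± 21.8 TPM in CD44-negative α6+ cells (SD over the libraries of each gate). The median log2 fold of the members was 0.40, beside -0.13 over all genes. Without plate OT_B the log2 fold of Dsg1a was 0.91, with all plates taken as labelled it was 0.82, and without plate OT2 that of Dsc2 was 0.91, all under 2-fold. Dsg2, at -0.76, passed 2-fold lower with a pseudocount of 0.1 (-1.12) and with rescaled TPM (-1.09). This comparison and the previous one share the cells after transfer, which were not gated on α6, CD34 or CD44. In both, that gating cannot be told apart from therapy and strain.

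Reporter-positive cells had more Dsc2 and less Dsg1a than either reporter-negative α6+ gate. Dsc2 averaged 38.7 ± 57.1 TPM in reporter-positive, 4.01 ± 10.2 TPM in CD44+ reporter-negative and 10.5 ± 21.8 TPM in CD44-negative α6+ cells (SD over the libraries of each gate). Its log2 folds were 2.99 over CD44+ reporter-negative and 1.79 over CD44-negative α6+ cells. Dsg1a averaged 3.84 TPM in reporter-positive cells, and its log2 folds were -1.58 against CD44+ reporter-negative and -1.46 against CD44-negative α6+ cells. Its close copy Dsg1b had log2 folds of 0.61 and 0.31, the other direction, and reads may be split between them. Dsc2 and Dsg1a were the only members past 2-fold, 1 higher and 1 lower of 10 in each comparison. The background was 12.6% higher and 16.5% lower of 12928 genes against CD44+ reporter-negative cells, and 9.8% higher and 4.78% lower of 11887 genes against CD44-negative α6+ cells. The median log2 folds of the members were 0.30 and 0.03, beside -0.03 and 0.07 over all genes. With means of log2 values the fold of Dsg1a against CD44+ reporter-negative cells was -0.90, under 2-fold, while Dsg3 (1.56), Dsp (1.32), Pkp1 (1.40), Pkp3 (1.37) and Jup (1.35) were past it. Those 5 were at most 0.59 in keratinocyte-led libraries. Dsc1 passed 2-fold lower with rescaled TPM (-1.03 against CD44+ reporter-negative and -1.05 against CD44-negative α6+ cells), and without plate CSC2 it was -1.09 against CD44-negative α6+ cells. Since the reporter-positive and CD44+ reporter-negative gates split by Xist and Y-linked RNA, sex or animal cannot be told apart from the gate there. Within the CD44-negative α6+ gate Dsg1a averaged 15.5 TPM in the 42 libraries with Xist and 9.45 TPM in the 44 with Y-linked RNA, and Dsc2 12.7 and 9.30 TPM.

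CD44+ reporter-negative cells differed from CD44-negative α6+ cells in 1 member. Dsc2 averaged 4.01 TPM in CD44+ reporter-negative and 10.5 TPM in CD44-negative α6+ cells, a log2 fold of -1.20. That is 1 of 10 members at least 2-fold lower, beside 6.18% of 12612 genes, and 0 of 10 higher, beside 16.8%. In keratinocyte-led libraries alone, with means of log2 values or with 6000 to 8000 genes, the log2 fold of Dsc2 was -0.94, under 2-fold. With means of log2 values Dsg3, Dsc3 and the 4 plaque members were past 2-fold lower, at -1.15 to -1.57. The median log2 fold of the members was -0.32 with all 15 libraries and -0.0015 with the 12 keratinocyte-led ones.

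CD44-negative α6+ cells, set against α6-negative cells, had 1 of 10 members at least 2-fold higher and 2 of 10 at least 2-fold lower, beside 8.66% and 25.7% of 13507 genes. Dsc2 averaged 10.5 TPM in CD44-negative α6+ and 2.31 TPM in α6-negative cells, a log2 fold of 1.80. Dsg1a averaged 12.3 ± 19.1 TPM in CD44-negative α6+ and 30.9 ± 46.3 TPM in α6-negative cells, a log2 fold of -1.26. Dsc1 averaged 3.63 ± 10.2 TPM in CD44-negative α6+ and 18.8 ± 35.2 TPM in α6-negative cells, a log2 fold of -2.10. With means of log2 values Dsg1a was -0.69, and with libraries of 6000 to 8000 genes it was -0.97, both under 2-fold, while Dsg3, Dsc3 and the 4 plaque members were past 2-fold higher with means of log2 values, at 2.201 to 3.397. The α6-negative libraries not led by keratinocyte markers held almost no desmosome RNA. Of the 16, 1 had Dsg1a, 1 Dsc2, 1 Dsc3, 2 Dsp and 1 Pkp1 at a TPM of at least 1, whereas 10 had Jup, at a mean of 27.3 TPM. In the 27 keratinocyte-led libraries the mean of Dsg1a was 49.1 TPM, of Dsc1 29.96 TPM and of Dsp 229.6 TPM. In those libraries alone the log2 folds were -1.91 for Dsg1a, -2.74 for Dsc1 and 1.36 for Dsc2. The median log2 fold was 0.37 with all libraries and -0.29 with keratinocyte-led ones, beside -0.31 over all genes with all libraries.

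**Figure D3:**
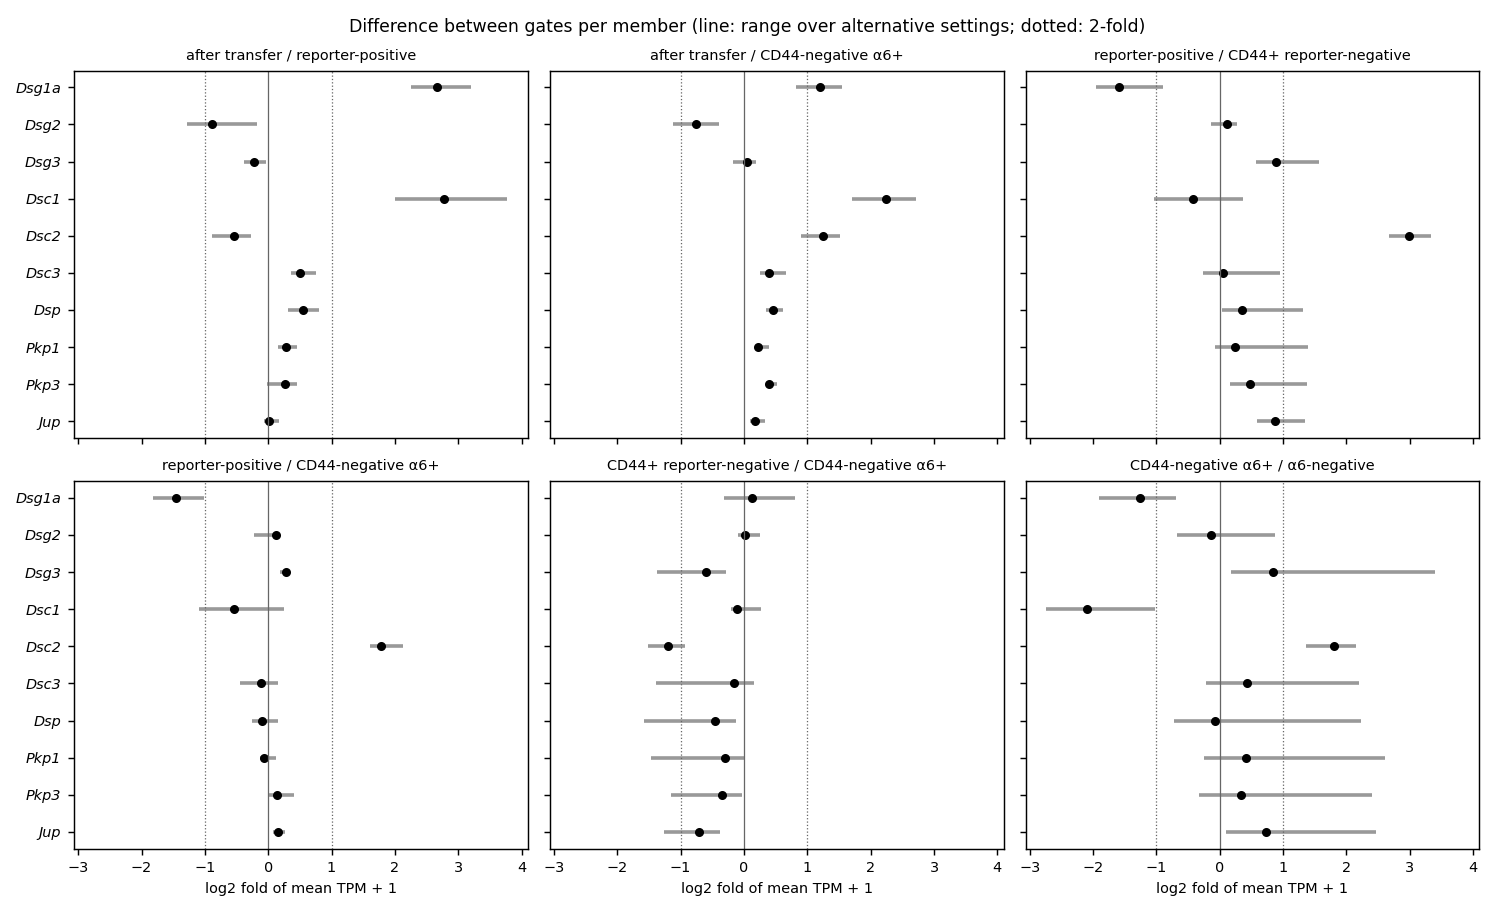
Points give the log2 fold of mean TPM + 1 for each member in the 6 comparisons, first-named gate over the second, grey lines the range over alternative settings and dotted lines 2-fold. Dsg1a and Dsc1 stand right of 2-fold after transfer against reporter-positive cells, at 2.67 and 2.78, and Dsc2 stands right of it for reporter-positive against CD44+ reporter-negative cells, at 2.99.

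The mix of cadherins followed from these values. Dsg3 made up 71.2% of the summed desmoglein members after transfer, 92.9% in reporter-positive, 74.7% in CD44+ reporter-negative, 83.1% in CD44-negative α6+ and 54.6% in α6-negative cells. Dsg1a made up 27.7%, 3.98%, 20.98%, 13.9% and 41.2% in the same order. Over these 3 members, the α6-negative gate had the least Dsg3 and the most Dsg1a in the mix, and the reporter-positive gate the reverse. With Dsg1b, Dsg1c and Dsg4 counted as well, the 3 Dsg1 copies made up 51.97% of all desmogleins after transfer, 24.1% in reporter-positive, 37.05% in CD44+ reporter-negative, 29.9% in CD44-negative α6+ and 50.5% in α6-negative cells, so the top of the order depends on how the copies are counted. Among desmocollins Dsc3 led every gate with 69.5%, 64.7%, 90.9%, 85.1% and 73.9%. The second desmocollin was Dsc2 in reporter-positive cells, with 33.4% against 1.88% for Dsc1, and Dsc1 in α6-negative cells, with 23.2% against 2.85% for Dsc2. After transfer both were present, with 17.01% for Dsc2 and 13.5% for Dsc1. If Dsg1a, Dsg1b and Dsg1c are summed, since their reads may be split, the level was 83.8 TPM after transfer, 29.4 in reporter-positive, 29.9 in CD44+ reporter-negative, 32.7 in CD44-negative α6+ and 51.9 TPM in α6-negative cells. In the sum, reporter-positive cells were lowest by a small margin, under 2-fold, whereas for Dsg1a alone they were over 2-fold below both reporter-negative α6+ gates. The ratio of Jup to Dsp was 3.53, 5.13, 3.61, 4.31 and 2.46 in the order of gates used above.

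**Figure D4:**
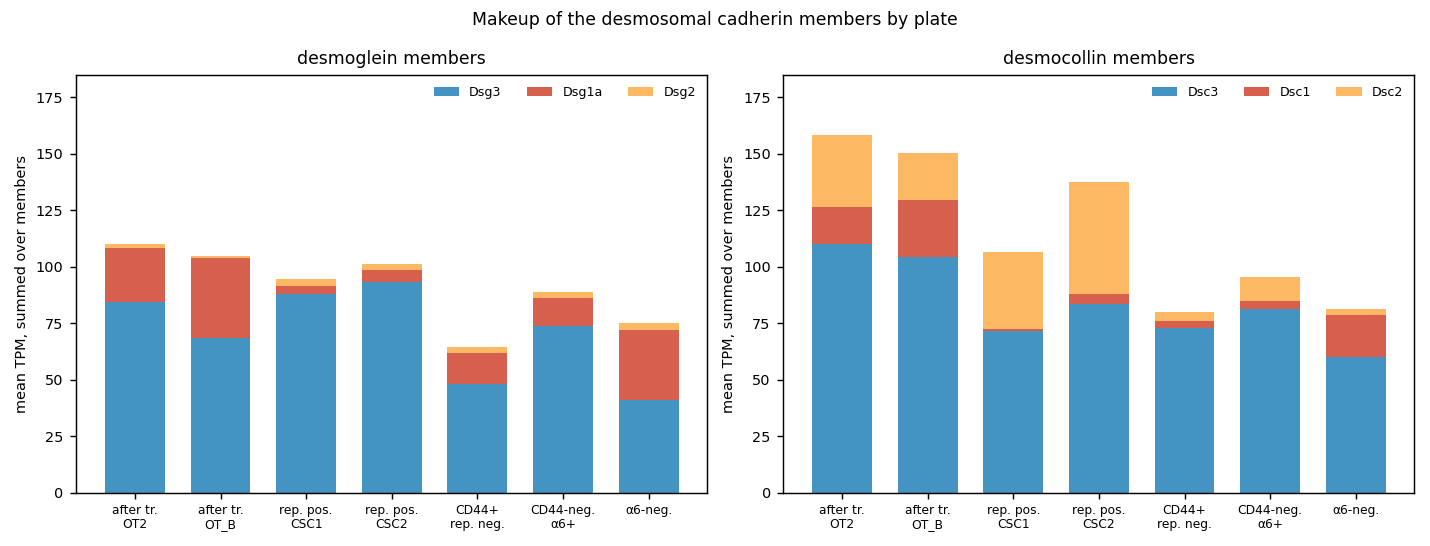
Bars give the mean TPM of the desmoglein members (left) and desmocollin members (right), stacked, for each plate. Dsg1a is at 24.1 TPM on OT2 and 35.1 on OT_B, against 3.18 on CSC1 and 5.34 on CSC2. Dsc1 is at 16.1 and 25.4 TPM, against 1.17 and 4.48, on the same plates. Both reporter-positive plates carry a thick Dsc2 layer (34.1 TPM on CSC1 and 49.4 TPM on CSC2). The copy Dsg1b, not drawn, averaged 54.1 TPM after transfer and 25.5 TPM in reporter-positive cells.

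Within gates, Dsc1 was seldom seen without Dsg1a, whereas Dsg1a often occurred without Dsc1. After transfer 98 libraries had both Dsg1a and Dsc1 at a TPM of at least 1, 37 had Dsg1a alone and 1 had Dsc1 alone. In reporter-positive cells the counts were 11, 27 and 2, in CD44+ reporter-negative cells 5, 2 and 0, in CD44-negative α6+ cells 21, 33 and 2, and in α6-negative cells 16, 10 and 0. Dsc1 without Dsg1a was therefore seen in 5 libraries over the 5 gates. Dsg2 and Dsg1a were mostly apart after transfer, where 10 libraries had both, 22 had Dsg2 alone and most of the others Dsg1a alone. The number of members at a TPM of at least 1 had a median of 8 of 10 in libraries after transfer, reporter-positive and CD44-negative α6+, and 7 in the other gates. All 10 members were seen together in 2 libraries after transfer, 3 reporter-positive and 1 CD44+ reporter-negative library.

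Correlations across keratinocyte-led libraries of 1 gate describe the same pattern, with the caution that all points share a plate set and a range of gene numbers. Pearson's r of log2(TPM + 1) between Dsg1a and Dsc1 was 0.80 after transfer (n = 87 and 90 on the 2 plates), 0.47 in reporter-positive (n = 73 and 32), 0.52 in CD44-negative α6+ (n = 91) and 0.46 in α6-negative cells (n = 27). Between Dsg1a and Dsg2 it was -0.50, -0.52, -0.47 and 0.09. Between the plaque genes Pkp1 and Jup it was 0.76, 0.60, 0.81 and 0.86, and between the basal cadherins Dsg3 and Dsc3 0.49, 0.83, 0.46 and 0.62. Dsc1 and Krt5, a basal keratin, had r of -0.66, -0.61, -0.58 and -0.61. With Krt14, also a basal keratin, the r of Dsc1 was -0.25, 0.07, -0.06 and 0.12. Dsg1a and Krt5 had r of -0.61, -0.14, -0.36 and -0.11. Dsg1a and Krt10, a keratin of the layers above, had r of 0.74, 0.19, 0.53 and 0.24. Dsg3 also moved with the number of genes, with r of 0.64, 0.42, 0.41 and 0.42, and the part of gene number in its pairings was not tested.

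The genes most like the members were sought among 8258 candidate genes. Here Pearson's r of log2(TPM + 1) was taken across all kept libraries of a gate, not only keratinocyte-led ones. It was averaged over the 4 gates with at least 30 libraries. Perp, a membrane protein of desmosomes, was nearest to the mean of the members with a mean r of 0.86, ahead of Pvrl4 (0.78), Lypd3 (0.78) and Dsg1b (0.78). Perp was also the nearest gene to Dsg1a (0.73), Dsc3 (0.72), Dsp (0.75), Pkp1 (0.72), Pkp3 (0.61) and Jup (0.72). The nearest to Dsg3 was Lad1 (0.59), to Dsc1 Gsdmc (0.60), to Dsc2 the connexin gene Gjb2 (0.63) and to Dsg2 the prostaglandin transporter gene Slco2a1 (0.53). The α6-negative gate, which mixes keratinocytes with other cells, weighed in these values, and without it, an alternative added after seeing the data, the nearest genes of Dsg1a, Dsg2, Dsg3, Dsc1 and Dsc2 became Dsg1b, Hspg2, Nfe2l2, Calm4 and Krt6b. Perp stayed nearest to the mean, at 0.83.

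Other junction genes give the setting. Perp averaged 673 TPM after transfer, 569.8 in reporter-positive, 318.9 in CD44+ reporter-negative, 479.2 in CD44-negative α6+ and 471.5 in α6-negative cells, the same range as Jup. In the list of 9 other desmosome and cornified junction genes, 1 (Dsg1b) was at least 2-fold higher after transfer than in reporter-positive cells and 1 (Cdsn) lower, of 7 measured, beside 3.17% and 8.6% of all genes. Dsg1b, the sister of Dsg1a, averaged 54.1 TPM after transfer and 25.5 TPM in reporter-positive cells, a log2 fold of 1.05. Cdsn, corneodesmosin, averaged 0.86 TPM after transfer and 4.12 TPM in reporter-positive cells, where 1 library held 253.1 TPM. Against CD44-negative α6+ cells, cells after transfer had 1 of 5 higher (Dsg1b, 1.37) and 0 lower, beside 3.91% and 4.71%. Of the 10 adherens junction genes, 0 passed 2-fold in either comparison of cells after transfer, and E-cadherin (Cdh1) averaged 70.1 TPM after transfer, 95.6 in reporter-positive and 62.02 in CD44-negative α6+ cells. In reporter-positive against CD44+ reporter-negative cells 2 of 10 were higher, the nectin genes Pvrl1 (1.31) and Pvrl4 (1.35), beside 12.6% of all genes, with 3 of the 15 CD44+ reporter-negative libraries not led by keratinocyte markers. In CD44-negative α6+ against α6-negative cells P-cadherin (Cdh3) was higher (2.51), and Ctnnb1 (-1.09) and Mllt4 (-2.22) were lower. The shares of all genes were 8.66% and 25.7%. These folds used all libraries, and only 27 of the 43 α6-negative ones were led by keratinocyte markers.

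Keratins, the filaments that desmosomes anchor, were counted in the same way. After transfer against reporter-positive cells 4 of 11 were at least 2-fold higher (Krt15, Krt1, Krt10 and Krt6b) and 3 lower (Krt17, Krt8 and Krt18), beside 3.17% and 8.6% of all genes. The Krt15 mean of 32.1 TPM after transfer leaned on 1 library at 4582 TPM, and Krt15 was at a TPM of at least 1 in 9.6% of libraries after transfer and 7.62% of reporter-positive ones. Krt10 averaged 236.6 TPM after transfer and 7.15 TPM in reporter-positive cells, in the same direction as Dsg1a and Dsc1. Against CD44-negative α6+ cells, 4 of 11 were at least 2-fold higher after transfer (Krt6b, Krt16, Krt8 and Krt18) and 1 lower (Krt15). The shares of all genes were 3.91% and 4.71%. In that comparison the log2 folds were 0.20 for Krt1 and 0.94 for Krt10, both under 2-fold. In CD44-negative α6+ against α6-negative cells, with all libraries, Krt1 (1.39) and Krt10 (0.78) ran opposite to Dsg1a (-1.26) and Dsc1 (-2.10). Krt8 and Krt18, the keratins of simple epithelia, averaged 6.35 and 12.5 TPM after transfer. They averaged 37.5 and 44.1 TPM in reporter-positive cells, the gate in which Dsc2 was highest, and 0 and 0.52 TPM in CD44-negative α6+ cells. After transfer, Krt8 was at a TPM of at least 1 in 3.95% of libraries and Krt18 in 10.2%. Reporter-positive cells had 3 of 11 higher (Krt17, Krt8, Krt18) and 3 lower (Krt15, Krt1, Krt10) than CD44-negative α6+ cells, beside 9.8% and 4.78% of all genes.

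Repeat libraries show how well 1 cell's value is known. Libraries with the same well name that were each other's best match formed 38 pairs of plates OT1 and OT_B, 46 of OT2 and OT_A, and the 71, 29 and 14 that cross the labels (median r 0.94 in all). In these pairs, Jup was at a TPM of at least 1 in both libraries of every pair. Dsg3, Dsc3, Dsp and Pkp1 were never at that level in 1 library only, and Pkp3 was in 1 pair. Dsg1a was detected in 1 library only in 11 pairs, 9.82% of those with Dsg1a at all. Dsc1 was in 1 only in 5 pairs (7.25%), Dsc2 in 14 (9.21%) and Dsg2 in 13 (17.3%). Neither library had Dsg1a in 86 pairs. Where both libraries had the gene, the median difference ranged over 0.15 (Dsg3) to 0.37 (Pkp3) on the log2 scale. Cells under a TPM of 1 for Dsg1a, Dsc1 or Dsc2 in 1 library were thus mostly under it in both, though repeats made from 1 amplified cDNA would share losses made before it, and the step that was repeated was not given in the sources used here.

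**Figure D5:**
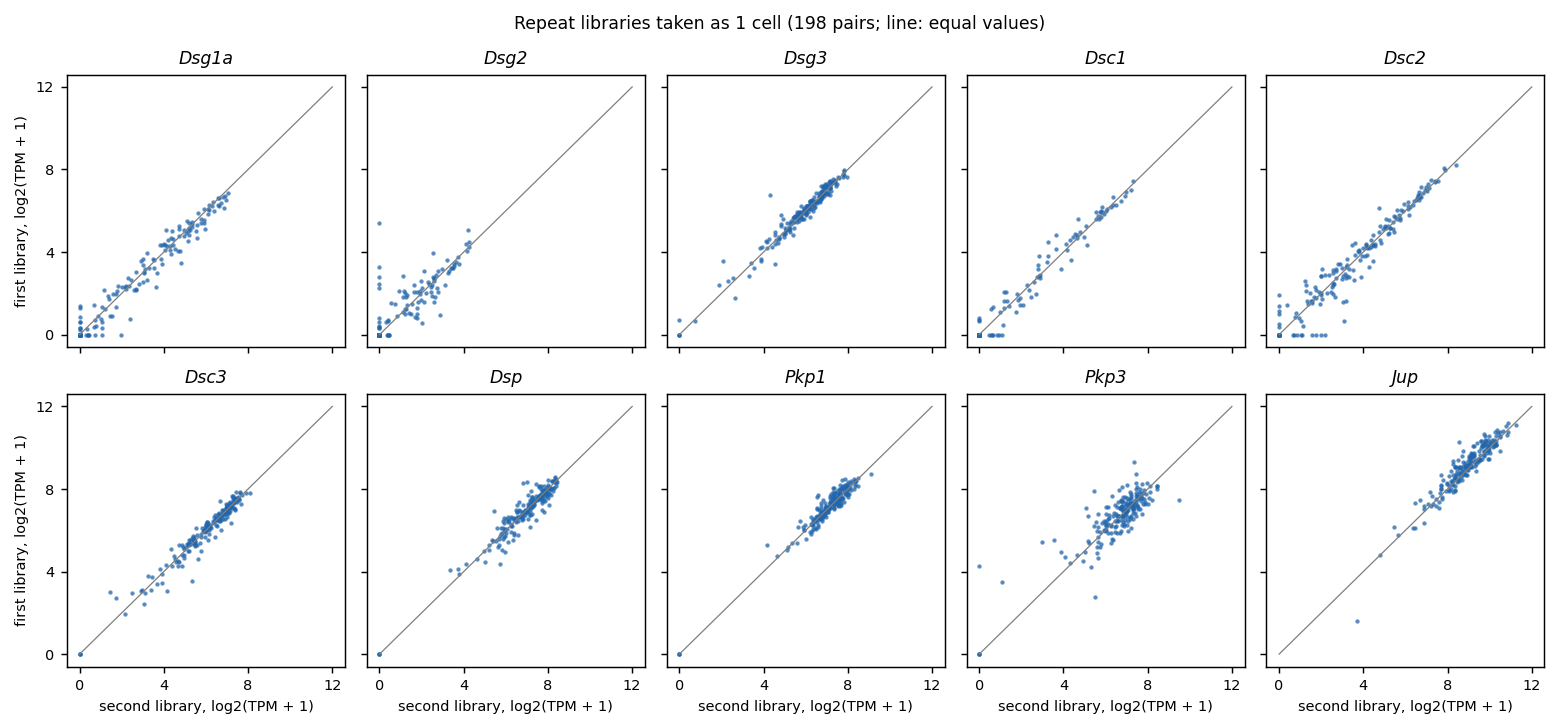
Each point is 1 pair of repeat libraries, with log2(TPM + 1) in the first and second library on the axes and 1 panel per gene; the line marks equal values. Most points lie near the line, Dsg2 has 13 pairs at a TPM of at least 1 in 1 library only, and Pkp3, with a median difference of 0.37, scatters most among the plaque genes.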

How the data were processed

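Each library was 1 sorted well. The deposited values are TPM per gene, which the authors made with Bowtie2 2.2.9 and RSEM 1.2.30 on mm10, per the submitters' processing notes. Since TPM holds no read depth, detected genes per library stood for it; 8 rows treated as ribosomal took 66.1% to 76.4% of TPM (plate medians). Libraries with at least 2000 detected genes were kept, 696 of 908. Python 3.11.15 with pandas 2.3.3 computed log2 folds of mean TPM + 1 over genes with a mean of at least 1 in either gate, called at 2-fold; the code was tested on simulated data. Named genes are all members, listed genes past 2-fold and the nearest genes by correlation. Perp, Cdh1, Krt5 and Krt14 were added after their values were seen. The members and lists were chosen with earlier results of these data known. Alternatives changed the gene minimum, pseudocount, scaling, averaging, cell identity, gene number, repeats and plates. Promoters are from RefSeq, with 2 of 10 members matched and the cadherin members left out of the match.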

Additional observations from a re-analysis of the deposited data

How the results depend on the processing

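Among 60 alternative values of the members' median log2 fold, 46 moved by less than the spread between plates. After transfer against reporter-positive cells it was 0.45 with rescaled TPM and 0.069 without plate CSC1. Without that plate it was also 0.48 for reporter-positive against CD44+ reporter-negative and 0.18 against CD44-negative α6+ cells. With means of log2 values it was 1.33 for reporter-positive against CD44+ reporter-negative, -1.21 for CD44+ reporter-negative against CD44-negative α6+ and 2.21 for CD44-negative α6+ against α6-negative cells, where libraries at 0 weigh more. In keratinocyte-led libraries these 3 were -0.022, -0.0015 and -0.29, and with 6000 to 8000 genes 0.079, -0.11 and 0.70. With CD44-negative α6+ libraries matched on Xist or Y-linked RNA the last was 0.20. The other causes were not tested. In 9 cases a member past 2-fold was under it in an alternative, and in 25 the reverse. No paired analysis was possible because the replicate numbers only name libraries in accession order and no result comes from a test. Depth is unknown, so low members such as Dsg2 may be missed.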
